A study of Fragaria x ananassa with 6 samples.

Results

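Genes at the end of the flavonoid pathway were followed in strawberry floral buds, namely FaLAR, FaANR1, FaANR2, FaTT12, FaMATE and FaGST1. They were taken by symbol, as every non-control spot that the array files name for a leucoanthocyanidin reductase, an anthocyanidin reductase, a MATE-type transporter or the glutathione transferase of flavonoid transport. These 6 genes were read by 7 probes in 13 spots per array, out of 35117 features, 35337 probes and 61657 non-control spots. Only 45 of the features carried a gene symbol.

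FaPRE1-OX buds came from cultivated strawberry (Fragaria x ananassa) transformed with pK7WG2-FaPRE1, a vector that drives its insert from a constitutive viral promoter, and were labelled as elongated. FaPRE1 is an atypical helix-loop-helix regulator of the PRE family, whose members act on other helix-loop-helix proteins without binding DNA themselves. Control buds came from plants transformed with the empty vector and were labelled as normal. There were 3 samples in each group. Total RNA was isolated from independent buds, but the labels do not say whether the replicates were separate transgenic lines, so a p-value here speaks of the scatter among these 6 samples alone, and that scatter may be technical. Each of 3 two-colour arrays of 60-base probes held 1 FaPRE1-OX and 1 control sample, with FaPRE1-OX in the dye Cy3 on arrays 1 and 3 and in Cy5 on array 2.

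Proanthocyanidins, or condensed tannins, are chains of flavan-3-ols that plants lay down in vacuoles, where they give astringency and deter herbivores and microbes. Leucoanthocyanidin reductase (LAR) makes catechin-type units from leucoanthocyanidins, and anthocyanidin reductase (ANR) makes epicatechin-type units from the same anthocyanidins that would otherwise become red pigments. The units and pigments then have to cross the vacuolar membrane. In Arabidopsis the MATE transporter TT12 carries flavan-3-ol glycosides into seed coat vacuoles, and the glutathione transferase TT19 binds flavonoids on their way there. Flowers and unripe fruits of strawberry are rich in these tannins.

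Across the series, 57.7% to 67.2% of spots were well above background in the FaPRE1-OX samples and 62.8% to 67.4% in the controls, and no spot was saturated. FaPRE1 itself read 8.59, 8.74 and 8.04 as log2 signal in FaPRE1-OX 1, 2 and 3 and 6.09, 6.64 and 6.37 in control 1, 2 and 3. Every FaPRE1-OX sample was higher than any control, which held for 20.6% of all genes tested. The log2 difference was 2.09 ± 0.23 (SE). The FaPRE1 probe was well above background in 3 of 3 FaPRE1-OX samples but in only 1 of 3 controls. Its control signals were thus dim, and the size of the difference is not precise. FaPRE1-OX 3 stood apart. Its signals correlated across genes at 0.959 and 0.957 with FaPRE1-OX 1 and 2, and at 0.963 to 0.965 with the controls, while FaPRE1-OX 1 and 2 correlated at 0.996 with each other. Arrays 1 and 2 gave nearly the same ratios (Pearson r = 0.963 across genes, which are not independent replicates). FaYabby, of a family that patterns lateral organs, was well above background in all 6 samples. Of 4 ripe fruit symbols, Famyb10, FaRGL1 and FaAAT3 never reached that mark, and FaQR did in all 6. In whole buds, fewer cells of a type and less RNA per cell cannot be told apart.

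Levels are given below as log2 signals after background correction and normalization. Brightness depends on the probe, so levels are compared between groups and never between genes. The percentile of a probe is its place among all 35337 probes of the same sample. FaPRE1-OX was set against control on each array as a log2 ratio, and the ratios were fitted with limma, with a term for the dye.

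FaLAR, the leucoanthocyanidin reductase, read higher in FaPRE1-OX on all 3 arrays and had the smallest standard error of the 5 members tested. The FaLAR probe read 13.71, 13.65 and 13.68 in FaPRE1-OX 1, 2 and 3 as log2 signal, while control 1, 2 and 3 read 13.31, 13.28 and 13.14. Every FaPRE1-OX sample thus lay above every control, and the spread within each group was small, with means of 13.68 ± 0.03 in FaPRE1-OX and 13.24 ± 0.09 in control (SD, n = 3 each). The probe was bright in both groups, at percentiles of 98.5 to 98.6 in FaPRE1-OX and 97.7 in all 3 controls. The log2 ratios on arrays 1, 2 and 3 were 0.40, 0.38 and 0.53. Duplicate spots of the probe differed in log2 ratio by 0.01 to 0.05 within an array, an error that leaves out the spread between samples. The fit put the log2 difference at 0.42 ± 0.11 (SE), a 1.34-fold higher signal in FaPRE1-OX, with a 95% interval of 0.07 to 0.77. Over all 23382 genes tested, limma's fit with the dye term left an adjusted p of 0.139, and dropping that term left 0.0324. Without that term 22.6% of all genes passed. The size hardly moved with the processing, from 0.39 to 0.51 over 14 alternatives, of which 3 passed an adjusted p of 0.05. FaLAR passed without pairing by array, that is with no replicate block (adjusted p = 0.037 in limma), where 18.1% of all genes did. It also passed without replicate 3, at 0.39 (adjusted p = 0.00116 in limma), a setting in which 59.6% of all genes and all 5 tested members passed.

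FaANR1, an anthocyanidin reductase, had one of the brightest probes on the array and no direction shared by the arrays. FaPRE1-OX 1, 2 and 3 read 16.08, 16.16 and 15.53 as log2 signal, while control 1, 2 and 3 read 16.02, 15.64 and 15.90. The groups overlapped, with FaPRE1-OX 3 the lowest sample of all and FaPRE1-OX 2 the highest. Percentiles were 99.8 to 99.9 in FaPRE1-OX and 99.7 to 99.8 in control. The ratio on array 1 was 0.06, that on array 2 was 0.51 and that on array 3 was -0.37. Its duplicate spots differed by 0.05 to 0.07 within an array. The fit gave 0.18 ± 0.15 (SE) on the log2 scale, with a 95% interval of -0.27 to 0.63 (adjusted p = 0.486 in limma). The interval holds 0 and also differences larger than that of FaLAR. Without the dye term the FaANR1 difference was 0.07 ± 0.19 (SE). Without replicate 3 the difference was 0.285 (adjusted p = 0.0319 in limma, where 59.6% of all genes passed), and without replicate 2 it was -0.16.

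FaLAR and FaANR1 stand on the branches that lead to catechin-type and epicatechin-type units. The log2 ratio of FaLAR exceeded that of FaANR1 by 0.34 on array 1 and by 0.90 on array 3, whereas on array 2 FaLAR minus FaANR1 was -0.14. The mean was 0.37 ± 0.52 (SD over 3 arrays), and an exact sign-flip permutation test gave a two-sided p of 0.5, where 3 arrays allow no p under 0.25. This comparison was chosen after the values were seen.

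The paralog FaANR2, the second symbol for anthocyanidin reductase, gave a signal near the limit of detection. It was well above background in 0 of 3 FaPRE1-OX samples and 0 of 3 controls, so it was not tested and no fold is given. The scanner software also marks spots that lie significantly above background, which is a weaker criterion. By that mark FaANR2 was above background in 6 of 6 FaPRE1-OX spots and in 0 of 6 control spots. Among the 6151 double-spotted probes that were never well above background, 3 had this pattern (0.0488%), FaANR2 among them, and 7 had the opposite one. FaANR2 was flagged through this same pattern, so its rarity is no test of a difference. Its background-subtracted signal, in scanner units, was 4.25 and 5.78 in FaPRE1-OX 1, 16.4 and 9.41 in FaPRE1-OX 2, and 6.38 and 4.45 in FaPRE1-OX 3. In the controls it was -2.1 and -1.24 in control 1, -1.67 and -1.63 in control 2, and 1.67 and -1.04 in control 3. All FaPRE1-OX spots were thus above all control spots, on arrays of either dye orientation. The choice of background mattered. With the local background subtracted from the median spot intensity, FaPRE1-OX spots ranged from 0.5 to 20 and control spots from -13 to 13, and the ranges overlapped. Of the 6 normalized spot ratios made that way, 2 were below 0. Whether the FaANR1 and FaANR2 probes each read only their own transcript was not tested, since probe sequences were not used here.

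**Figure D1:**
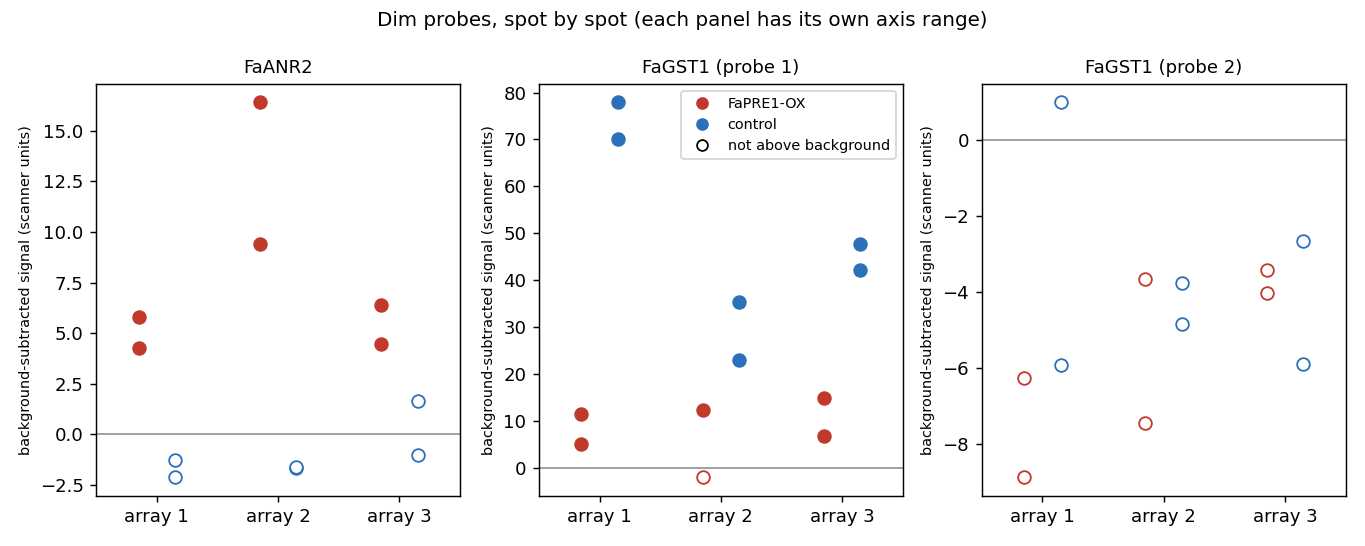
Background-subtracted signal (y axis, scanner units, own range in each panel) of every spot of FaANR2 and of both FaGST1 probes on the 3 arrays (x axis), with FaPRE1-OX in red left of control in blue and open circles for spots not significantly above background. FaANR2 spots lie between 4.25 and 16.4 in FaPRE1-OX and between -2.1 and 1.67 in control, the first FaGST1 probe between -1.98 and 14.8 in FaPRE1-OX and between 22.9 and 77.9 in control, and the second FaGST1 probe shows no spot above background.

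Of the MATE transporters, FaMATE was lower on all 3 arrays and FaTT12 on 2 of 3. FaMATE read 7.71, 7.78 and 7.94 as log2 signal in FaPRE1-OX 1, 2 and 3, while control 1, 2 and 3 read 8.23, 8.34 and 8.09. Every FaPRE1-OX sample was below every control, although FaPRE1-OX 3 and control 3 lay close together. The means were 7.81 ± 0.12 in FaPRE1-OX and 8.22 ± 0.12 in control (SD, n = 3 each), and the percentiles ran from 60.5 to 62.9 in FaPRE1-OX and from 64.7 to 67 in control. The ratios were -0.52, -0.56 and -0.15 on arrays 1, 2 and 3. FaMATE had a single spot per array, so no error between spots can be given for it. The scanner software's processed signals of that spot, in linear units, were 362, 354 and 296 in FaPRE1-OX 1, 2 and 3, beside 529, 578 and 333 in control 1, 2 and 3. The FaPRE1-OX signal was thus the lower one on each array, but on that scale FaPRE1-OX 1 and 2 lay above control 3. The fit gave -0.45 ± 0.14 (SE), or 1.36-fold less signal in FaPRE1-OX, with a 95% interval of -0.87 to -0.02 (adjusted p = 0.163 in limma). This size moved with the processing. It was -0.65 with the processed signals and -0.30 with the ratios of each array centred on their median, the ends of the range over 14 alternatives. FaMATE missed the threshold without the dye term as well (adjusted p = 0.0741 in limma). It just passed with no replicate block (adjusted p = 0.0497 in limma), where 18.1% of all genes did. Without replicate 3 it was -0.54 (adjusted p = 8.67e-05 in limma, where 59.6% of all genes passed).

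FaTT12, named after the Arabidopsis tannin transporter, read 7.20, 7.12 and 7.50 as log2 signal in FaPRE1-OX 1, 2 and 3, while control 1, 2 and 3 read 7.50, 7.38 and 7.13. FaPRE1-OX 2 was the lowest sample and FaPRE1-OX 3 was about as high as the highest control, so the groups overlapped. Ratios were -0.30 and -0.26 on arrays 1 and 2 and 0.365 on array 3. Its duplicate spots differed by 0.08 to 0.16 within an array. The fit gave -0.115 ± 0.193 (SE) with a 95% interval of -0.70 to 0.47 (adjusted p = 0.725 in limma). Without replicate 3 the difference was -0.28 (adjusted p = 0.00938 in limma, where 59.6% of all genes passed). The log2 ratio of FaTT12 was above that of FaMATE on every array, by 0.22, 0.30 and 0.52. The mean of this difference was 0.345 ± 0.153 (SD over 3 arrays), and the exact sign-flip permutation test gave p = 0.25, the smallest that 3 arrays allow.

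FaGST1, the glutathione transferase, was dimmer in FaPRE1-OX and the only member whose mark of well above background differed between the groups. Its first probe was well above background in 0 of 6 FaPRE1-OX spots and in 6 of 6 control spots. Of all 25785 double-spotted probes, 140 (0.543%) had this pattern and 39 had the opposite one. These 25785 include 6151 probes never well above background, which could show neither pattern. The pattern is that of FaGST1 itself, so its rarity is no test of a difference. The background-subtracted signal, in scanner units, was 11.5 and 4.97 in FaPRE1-OX 1, 12.3 and -1.98 in FaPRE1-OX 2, and 14.8 and 6.7 in FaPRE1-OX 3. It was 70 and 77.9 in control 1, 35.3 and 22.9 in control 2, and 42.1 and 47.7 in control 3. No FaPRE1-OX spot reached the dimmest control spot. Even so, 5 of the 6 FaPRE1-OX spots were significantly above background by the weaker mark.

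After normalization the first FaGST1 probe read 6.23, 6.16 and 6.53 as log2 signal in FaPRE1-OX 1, 2 and 3, while control 1, 2 and 3 read 6.90, 6.66 and 6.84. Means were 6.31 ± 0.20 in FaPRE1-OX and 6.80 ± 0.13 in control (SD, n = 3 each). All FaPRE1-OX samples were below all controls, which held for 25.2% of all genes tested. The percentile ran from 13.9 to 37.4 in FaPRE1-OX and from 41.2 to 46.7 in control. The ratios were -0.66, -0.50 and -0.31 on arrays 1, 2 and 3, and duplicate spots differed by 0.07 to 0.18. FaGST1 passed the filter on dim probes only through the controls, since 3 of 3 controls and 0 of 3 FaPRE1-OX samples were well above background. Its fit is therefore a description that depends on that filter, and not a test in its own right. The fit gave -0.49 ± 0.14 (SE), a 1.41-fold lower signal in FaPRE1-OX, with an adjusted p of 0.144 in limma with the dye term and 0.0398 without it. Without replicate 3 it was -0.58 (adjusted p = 6.53e-05 in limma, where 59.6% of all genes passed).

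The size of the FaGST1 difference depended on the background treatment, since an offset added before taking logarithms pulls the ratio of a dim probe towards 0. With an offset of 16 in place of 50 the log2 difference was -0.81. With the scanner software's processed signals, which were used with no such offset, it was -2.38 ± 0.29 (SE), or 5.21-fold lower in FaPRE1-OX (adjusted p = 0.0423 in limma, where 5.82% of all genes passed), and the ratios were -2.24, -3.02 and -1.24 on arrays 1, 2 and 3. In FaPRE1-OX 2, the spot with a background-subtracted signal of -1.98 had a processed signal of 7.83. Because the FaPRE1-OX signals are not well above background, none of these folds is precise. The second FaGST1 probe was above background in 0 of 6 FaPRE1-OX and 0 of 6 control spots, with background-subtracted signals from -8.87 to -3.42 in FaPRE1-OX and from -5.93 to 0.994 in control. With no filter, which averages both probes, the FaGST1 difference was -0.27 (adjusted p = 0.269 in limma). It thus rests on 1 of its 2 probes. Where each probe lies on the transcript was not analysed here.

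**Figure D2:**
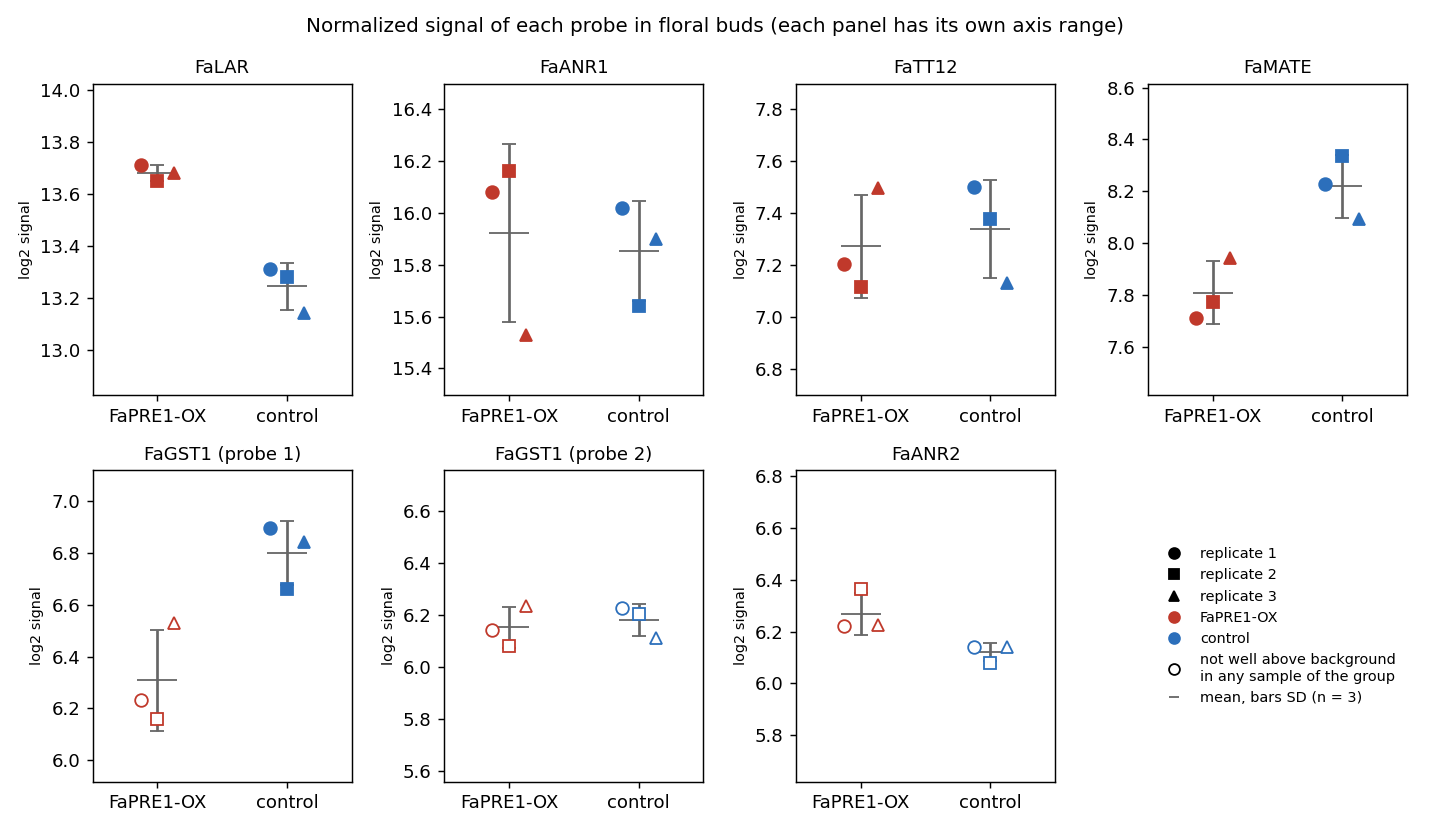
Log2 signal after normalization (y axis, own range in each panel) of each of the 7 probes in the 3 FaPRE1-OX samples (left, red) and the 3 control samples (right, blue), with group means and SD bars (n = 3) and open symbols where no sample of a group was well above background. FaLAR separates upwards in FaPRE1-OX (13.65 to 13.71 against 13.14 to 13.31), FaMATE and the first FaGST1 probe separate downwards, and FaANR1 and FaTT12 overlap, with FaPRE1-OX 3 the lowest of its group for FaANR1 and the highest for FaTT12.

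The scatter of the ratios over the arrays is shown spot by spot in the plot of log2 ratios. Arrays 1 and 2 differ in dye orientation. Between them the ratios of FaLAR, FaTT12 and FaMATE nearly coincided, and those of FaANR1 lay furthest apart among the 5 tested genes. On array 3 the ratio of each of FaLAR, FaTT12, FaMATE and FaGST1 was the highest of its 3 arrays, and that of FaANR1 was the lowest.

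**Figure D3:**
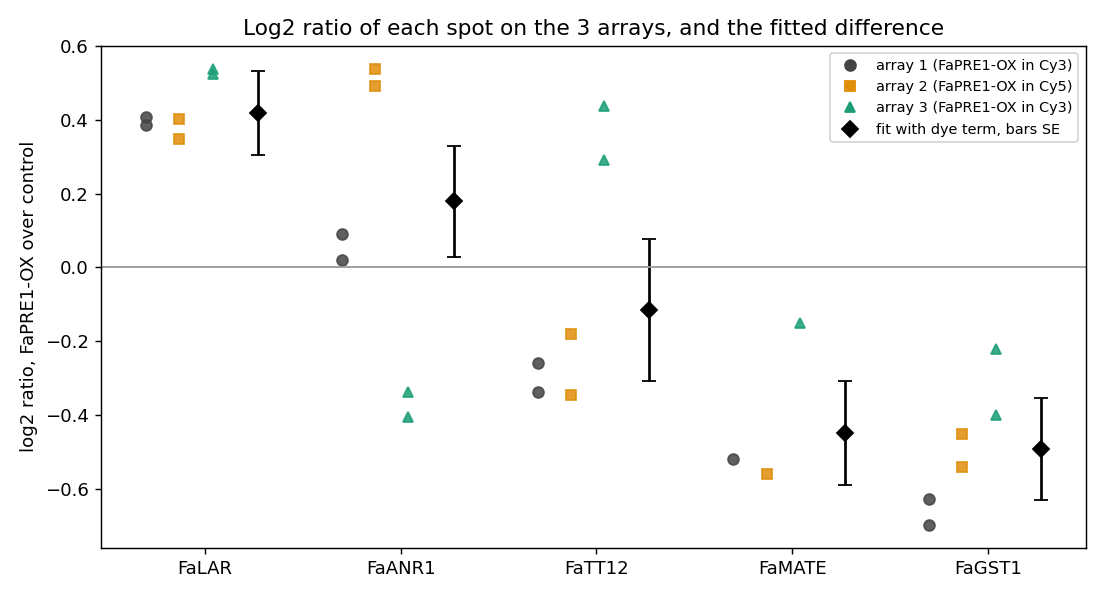
Log2 ratio of FaPRE1-OX over control (y axis) of every spot of the 5 tested genes (x axis; for FaGST1 the first probe) on arrays 1, 2 and 3, with the fitted difference and its SE as a black diamond. Spots of 1 array lie close together, FaLAR stays between 0.35 and 0.54 on all arrays, and FaTT12 and FaANR1 change sign on array 3.

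Of the 6 genes, 5 passed the filter on dim probes. With the dye term, limma called 0 of these 5 at an adjusted p under 0.05, as it did for 0% of all 23382 genes. FaGST1 is left out of the counts that follow, because it was tested only through the group in which it was bright. At an unadjusted p under 0.05 there were 2 of the other 4 (FaLAR and FaMATE), beside 28.9% of all genes. Without the dye term, 1 of 4 was called, beside 22.6% of all genes. FaLAR rose, as did 9.79% of all genes, and 0 of 4 fell, beside 12.8%. All FaPRE1-OX samples were above all controls for FaLAR, which held for 20.6% of all genes, and below them for FaMATE, which held for 25.2%. The ratio had the same sign on all 3 arrays for 2 of 4, beside 60.6% of all genes. The median log2 difference was 0.03 over the 4 genes and -0.02 over all genes tested.

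**Figure D4:**
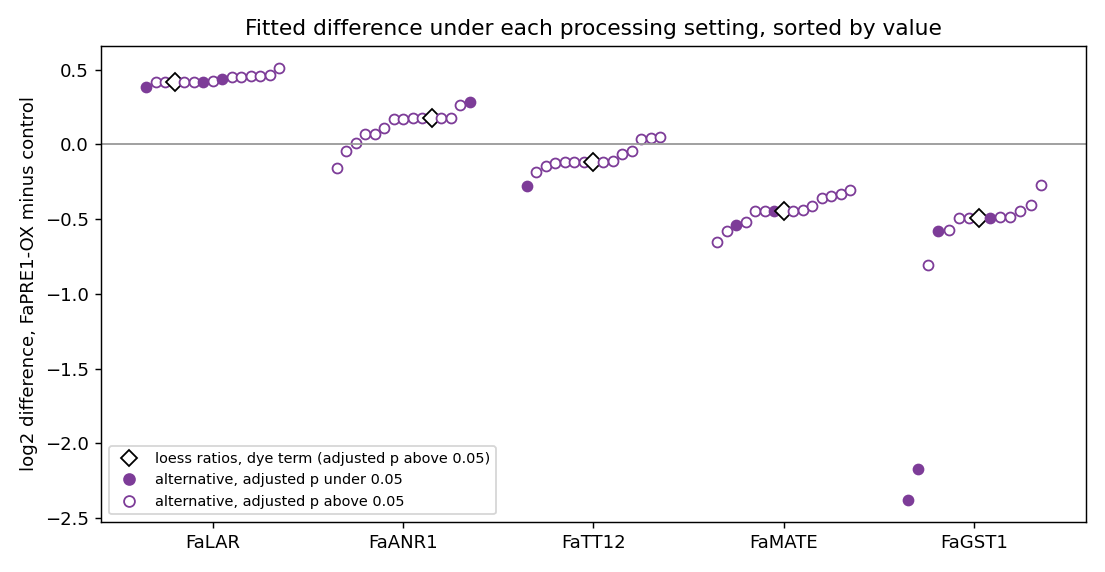
Fitted log2 difference, FaPRE1-OX minus control (y axis), of the 5 tested genes (x axis) under the processing settings, sorted by value within each gene, with filled circles for an adjusted p under 0.05 in limma (the fits of single FaGST1 probes are left out). FaLAR stays between 0.39 and 0.51 and FaMATE between -0.65 and -0.30, FaANR1 and FaTT12 cross 0, and FaGST1 runs from -0.27 with no filter to -2.38 with the processed signals.

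The other genes of the pathway were taken from a list of 8 symbols. Of these, 7 were tested, and with the dye term 0 passed at an adjusted p under 0.05, beside 0% of all genes. Without it 2 rose, beside 9.79% of all genes, and 0 fell, beside 12.8%. The 2 were FaDFR1C and FaDFR1, which stand for dihydroflavonol reductase, the enzyme that makes the leucoanthocyanidins used by LAR. Their log2 differences were 1.61 ± 0.24 and 0.91 ± 0.20 (SE, with the dye term), against 0.42 ± 0.11 for FaLAR. FaANS, for the anthocyanidin synthase that makes the substrate of ANR, had ratios of -0.135, 0.0095 and 0.20 and FaFHT, for flavanone 3-hydroxylase further up, of -0.64, 0.20 and -0.34. On the branches that compete for the same intermediates, FaUFGT, which glycosylates anthocyanidins, was at 0.38 ± 0.13 (SE), with ratios of 0.248, 0.367 and 0.537. FaFLS, a flavonol synthase on another such branch, was at -0.51 ± 0.25 (SE), with ratios of -0.365, -0.176 and -1.31. Famalonyltransf, an acyltransferase by its symbol, was at -2.01 ± 0.54 (SE). Its ratios on arrays 1, 2 and 3 were -2.52, -2.6 and -0.304. The list's untested symbol was Famyb10, the activator of anthocyanin synthesis in ripe fruit, which as above was too dim.

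Each tested member was also set beside the symbol whose 3 ratios were nearest to its own, as a description over 3 arrays and 35 other symbols. FaMATE and FaGST1 were nearest to each other, with a root mean square difference of 0.13 on the log2 scale. FaLAR was nearest to FaUFGT (0.09), FaTT12 to FaANS (0.21) and FaANR1 to FaEF1 (0.29). The closeness of FaMATE and FaGST1 held for these ratios only, and FaGST1 was tested only through the controls. With the scanner software's processed signals, FaGST1 had ratios of -2.24, -3.02 and -1.24 on arrays 1, 2 and 3. Those of FaMATE were then -0.691, -0.857 and -0.196, far from the FaGST1 ratios.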

How the data were processed

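The authors deposited scanner output as linear intensity values for both dyes of each array, with 0 or 1 flags per spot. Images were read with Agilent Feature Extraction, version 10.7 in the submitters' processing notes. All 3 arrays lay on 1 slide with 1 scan time. The sample titles of FaPRE1-OX carry the token PRE3, and the group follows the other labels. The deposited median spot and background intensities were corrected with normexp (offset 50) and normalized by loess within arrays in R 4.3.3 with limma 3.58.1. Control spots had no weight in the loess curve and were left out of the results. Spots with outlier flags took part in correction and normalization and were left out afterwards. Duplicate spots were averaged first, then the probes of a gene. The filter kept genes with a probe well above background in 3 or more of the 6 samples. For FaGST1, whose FaPRE1-OX signals were not well above background, each signal was set to at least the lowest one well above background. That lowest one, over all probes, was 6.03, 5.91 and 6.09 in FaPRE1-OX 1, 2 and 3. The FaGST1 levels there already lay above it, so 0 signals were raised and the step set no bound on its fold. The fit of ratios used lmFit and eBayes with a dye term, two-sided, with Benjamini-Hochberg adjustment at a threshold of 0.05. The dye term leaves 1 residual degree of freedom, against 2 without it. With the dye term, array 2 counts as much in the difference as arrays 1 and 3 together. Levels are after quantile normalization of average intensity. The number of arrays limits the precision.

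The replicate number is a shared array per the labels. Deviations of same-numbered samples correlated at 0.168, 0.179 and 0.135, and the ratio keeps this pairing. The members and lists were chosen with earlier results of these data known. All members were named whatever their values, with the listed pathway and tissue symbols and the nearest symbol of each. Probe sequences were not used here.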

Additional observations from a re-analysis of the deposited data

Results flagged for a closer look

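FaANR2 was picked out because a mark outside the main measurement, that of spots significantly above background, was set in 6 FaPRE1-OX spots of 6 and in 0 control spots of 6. The signals stayed below the stricter criterion of well above background in both groups, and with local background subtraction the groups overlapped.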

How the results depend on the processing

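The count of genes past limma's adjusted threshold was 0 with the dye term, and dropping that term made it 5292. It was 923 at the smaller offset of 16, 412 after scaling between arrays, 4238 with no replicate block, 1106 for median centring and 1361 for processed signals. With processed signals and no dye term together, chosen after seeing the data, it was 5297. Leaving out each replicate, always without the dye term, gave 0 to 13943 genes, the highest without replicate 3, where all 5 tested members passed. It stayed at 0 with the other filters, with outlier spots kept and with arrays 1 and 2 averaged as if they were 1 dye-swapped replicate. Unadjusted, 6765 genes had p under 0.05 with the dye term.

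FaLAR passed with no replicate block (0.42), without the dye term (0.435) and when a replicate was left out (0.39 to 0.46, passing without replicate 3). FaMATE passed with no replicate block (-0.45) and without replicate 3 (-0.54 to -0.335 over the replicates left out). FaGST1 was tested only through the controls, so its calls are descriptions and lend no support. It was past the threshold without the dye term (-0.49), as were 22.6% of all genes, and with processed signals (-2.38), as were 5.82%. With processed signals and no dye term, where 5297 genes passed, it passed too (-2.17). Without replicate 3 it passed as did 59.6% of all genes (-0.58 to -0.40 over the replicates left out). It was removed by the filter on all 6 samples, with no filter it was -0.27, and its second probe alone gave -0.05. FaANR1 reversed with the first 2 arrays averaged (-0.0428) and without replicate 2, within a range of -0.16 to 0.285. FaTT12 reversed with the first 2 arrays averaged (0.0421) and without replicate 1 (0.0511) or 2 (0.0331), within a range of -0.281 to 0.0511. FaLAR and FaMATE kept their direction in all alternatives run. FaGST1 did so too where it was fitted, but for a gene kept only through its bright controls this lends no support. The pairing by array changed no other call of these genes. What lay behind these shifts was not tested. Fits of 2 arrays have 1 residual degree of freedom. Dim signals limit FaGST1 and FaANR2.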
